A study of Mus musculus with 39 samples.

Results

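Lcn2, Gpnmb, Acox2, Hhipl1 and Casp4 were followed across all 13 groups of a time course in MIN6 cells, a mouse insulinoma line used as a model of the β cell. These 5 genes, of 24421 gene symbols in the count table, were selected on their measured counts because they were nearly silent in most libraries and much higher after 24 h of thapsigargin. Cells received 100 nM thapsigargin, which blocks the pump that fills the endoplasmic reticulum (ER) with calcium and served as the ER stress control, 5 µM SW016789, a small molecule that induces insulin hypersecretion, or 0.1% DMSO as vehicle. Each treatment lasted 1, 2, 6 or 24 h, and a 0 h baseline was left untreated. In all, 3 independent experiments gave 1 library each to every group (n = 3 per group, 39 libraries), and all wells of an experiment were harvested together, in high-glucose medium with serum. MIN6 is a single tumour-derived line, so each experiment repeats the same cells.

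The 5 genes have different known roles. Lcn2 encodes lipocalin-2, a secreted carrier of iron-binding siderophores that is induced by NF-κB and C/EBP factors during inflammation. Gpnmb encodes a transmembrane glycoprotein of melanosomes and lysosomes whose transcription is driven by the MiT/TFE family. Acox2 encodes a peroxisomal oxidase for branched-chain fatty acids and bile acid intermediates, and Hhipl1 a secreted relative of the Hedgehog-interacting protein. Casp4 encodes an inflammatory caspase that senses cytosolic lipopolysaccharide and cleaves gasdermin D. When calcium leaves the ER, protein folding fails and the unfolded protein response begins, with eIF2α phosphorylation, ATF4 and CHOP among its best known steps.

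The 5 genes lie on 5 chromosomes (mm10), at chr2:32384637-32387739 on the minus strand for Lcn2 (Entrez 16819), chr6:49036518-49058182 on the plus strand for Gpnmb (93695), chr14:8225511-8259019 on the minus strand for Acox2 (93732), chr12:108306270-108328300 on the plus strand for Hhipl1 (214305) and chr9:5308849-5336791 on the plus strand for Casp4 (12363). No other gene in the table overlapped any of them. Because they were high together at 24 h of thapsigargin, the 250 bases upstream of each start are shown, from RefSeq on GRCm38.p6 (mm10), in the direction of transcription. All 5 matched the promoter table, and the start given in the count table was used where RefSeq lists several. Capitals mark matches on either strand to GGNNTTTCC (NF-κB), TTGCNNAA (C/EBP), TGATGNAA (C/EBP-ATF), TGANTCA (AP-1), TGACGTGG (unfolded protein response element), CACGTG (E-box) and CATGTG (M-box).
Lcn2: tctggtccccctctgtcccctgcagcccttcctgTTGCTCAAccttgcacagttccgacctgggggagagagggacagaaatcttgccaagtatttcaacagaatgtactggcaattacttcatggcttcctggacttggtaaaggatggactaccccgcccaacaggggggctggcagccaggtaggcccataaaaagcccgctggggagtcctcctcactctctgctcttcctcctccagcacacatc
Gpnmb: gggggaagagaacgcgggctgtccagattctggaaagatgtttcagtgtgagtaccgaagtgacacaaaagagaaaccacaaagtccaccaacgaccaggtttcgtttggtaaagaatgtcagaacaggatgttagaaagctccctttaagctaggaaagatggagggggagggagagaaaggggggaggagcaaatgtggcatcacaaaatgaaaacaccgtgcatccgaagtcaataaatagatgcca
Acox2: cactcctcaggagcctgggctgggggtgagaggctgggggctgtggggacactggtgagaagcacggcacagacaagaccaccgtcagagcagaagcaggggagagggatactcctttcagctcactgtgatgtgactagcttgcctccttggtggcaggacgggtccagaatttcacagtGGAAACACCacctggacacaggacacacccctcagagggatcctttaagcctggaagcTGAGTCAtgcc
Hhipl1: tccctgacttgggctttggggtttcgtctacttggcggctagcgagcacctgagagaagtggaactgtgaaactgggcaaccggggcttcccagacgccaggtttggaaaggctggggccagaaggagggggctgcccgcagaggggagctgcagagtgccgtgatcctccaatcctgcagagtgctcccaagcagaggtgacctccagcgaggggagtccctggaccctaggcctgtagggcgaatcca
Casp4: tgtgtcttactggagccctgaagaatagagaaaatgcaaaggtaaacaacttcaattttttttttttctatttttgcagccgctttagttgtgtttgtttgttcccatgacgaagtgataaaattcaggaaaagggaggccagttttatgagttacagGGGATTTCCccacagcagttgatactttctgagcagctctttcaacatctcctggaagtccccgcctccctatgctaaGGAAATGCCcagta
The windows are chr2:32387740-32387989, chr6:49036268-49036517, chr14:8259020-8259269, chr12:108306020-108306269 and chr9:5308599-5308848 in the order printed. Casp4 held 2 NF-κB matches, at 92 and 14 bases before the start counted from each match's first base, and Acox2 held 1 at 69 bases, where 4.93% of 32851 windows of this length hold at least 1. Lcn2 held a C/EBP match 216 bases before its start (9.56% of windows), and Acox2 an AP-1 match 11 bases before its start (6.75%). Gpnmb and Hhipl1 held none of the 7 motifs, and no window held the C/EBP-ATF (3.45% of windows), unfolded protein response element (0.563%), E-box (6.02%) or M-box (12.3%) letters. A match is a run of letters, not a bound site.

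Total counts were 9150443 to 47616080 per library (median 32153770). Levels are normalised read counts (CPM), read pairs per 1000000 of a library's TMM-scaled total. Between 6.17% and 36.6% of a library's reads were intergenic, with a median of 20.96% in the 9 thapsigargin libraries of 1 to 6 h, 14.4% in the 9 SW016789 libraries of those times and 7.23% in the 9 DMSO libraries. All 9 libraries of 24 h lay between 6.23% and 9.09%. DMSO 2 h replicate 2 stood apart, with 1000 of 13316 moderately counted genes at 0 (at most 171 in any other library), and all 5 genes were at 0 there. In bulk RNA, more RNA per cell and more cells with the RNA cannot be told apart.

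**Figure D1:**
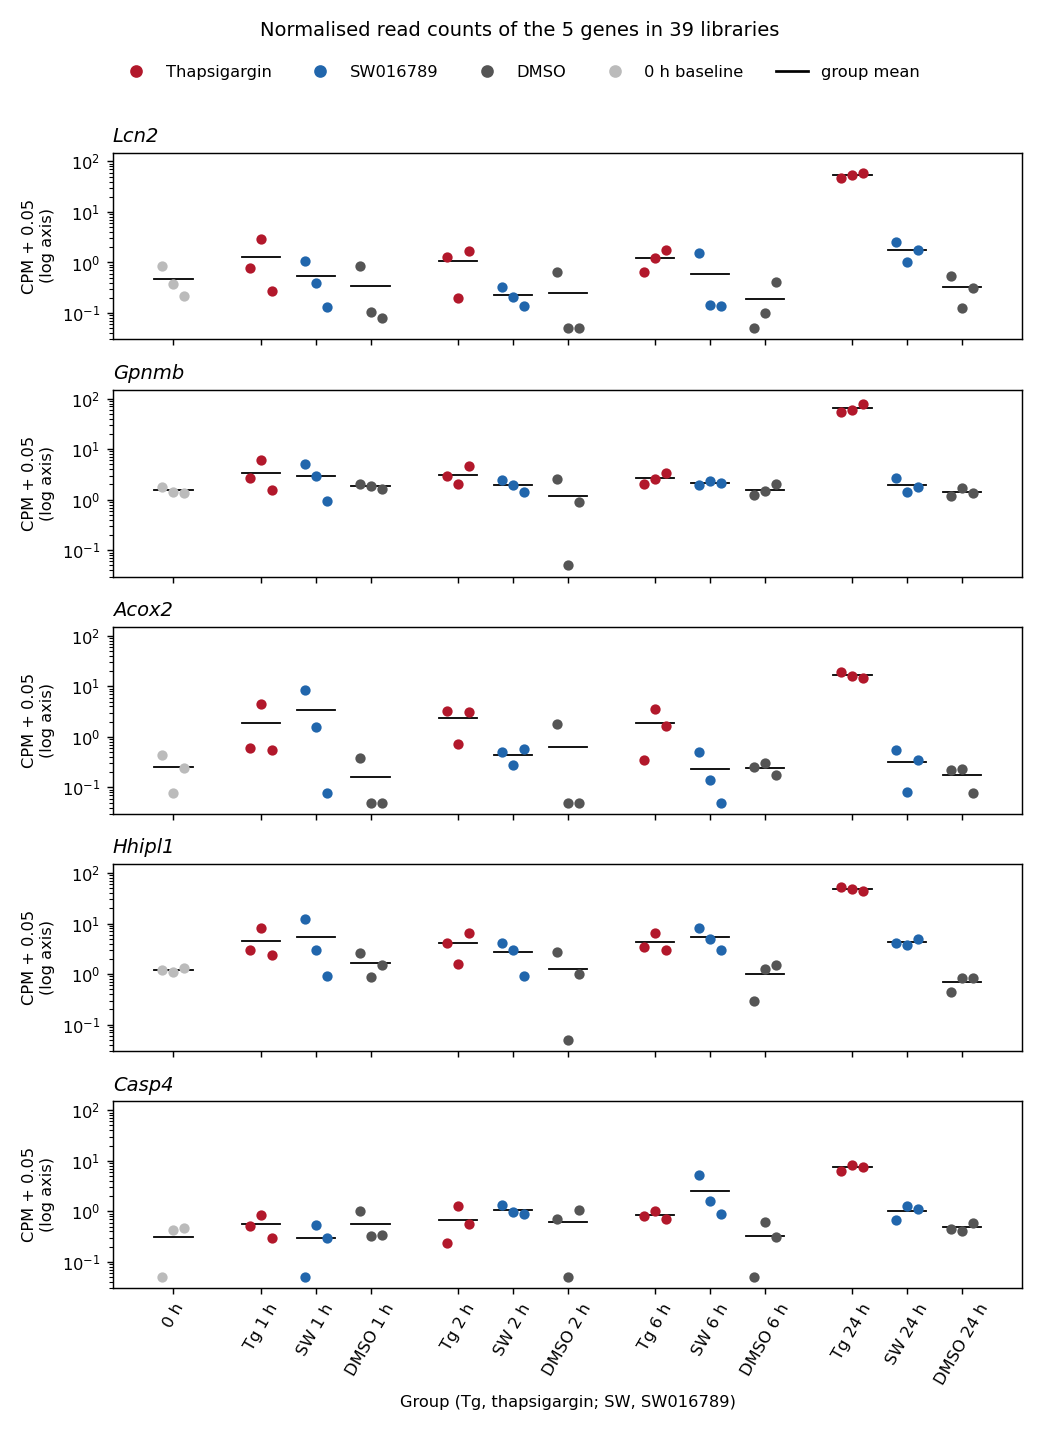
Normalised read counts (CPM plus 0.05, log axis) of Lcn2, Gpnmb, Acox2, Hhipl1 and Casp4 by group, with 1 point per library (n = 3) and a line at the group mean. The 3 libraries of 24 h thapsigargin lie above all 36 other libraries for every gene, between 6.31 and 79.7 CPM.

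Lcn2 had 1955, 1762 and 2328 read pairs after 24 h of thapsigargin, against 20, 3 and 10 in DMSO at 24 h. Normalised, Lcn2 stood at 53.3 ± 5.48 CPM with thapsigargin and 0.278 ± 0.209 CPM in DMSO (SD, n = 3 each), a ratio of means of 192 and a log2 fold change of 7.56 ± 1.26 (SE). This contrast chose the genes, so its size is a description without a test, here and for the other 4 genes. The log2 difference was 6.41, 8.55 and 7.49 in the 3 experiments, and without DMSO 24 h replicate 1, the highest of its group, the fitted value was 8.23. Lcn2 had the second largest log2 fold change of the 21752 genes tested, at rank 2.

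With SW016789 for 24 h, Lcn2 was at 2.52, 0.966 and 1.69 CPM, so all 3 libraries lay above the 3 DMSO libraries of that time. Its level was 1.72 ± 0.775 CPM with SW016789, against 0.278 ± 0.209 CPM in DMSO (log2 fold change 2.61 ± 1.07, adjusted p = 0.283 by edgeR). Over the 12 alternatives that gave one, the adjusted p ranged from 0.00444 to 0.698. With the compared libraries alone Lcn2 passed (2.60, adjusted p = 0.0196). The paper lists Lcn2 among the genes changed at 24 h both by SW016789 and, in mouse islets, by the NMDA receptor antagonist dextrorphan. SW016789 for 24 h ranked directly after thapsigargin for 24 h in the order of Lcn2 levels, and thapsigargin was 30.96-fold above it. With thapsigargin Lcn2 counts were 22, 45 and 7 at 1 h, 26, 3 and 40 at 2 h, and 22, 17 and 39 at 6 h. At 6 h these 3 libraries (1.16 ± 0.543 CPM) did not overlap those of DMSO (0.138 ± 0.196 CPM), with a log2 fold change of 3.00 ± 1.17 and an adjusted p of 0.0676. With the experiment number as a block Lcn2 passed at 6 h (3.02, adjusted p = 0.0338), and it also passed without DMSO 6 h replicate 3 (0.0329), with a range of 0.0249 to 0.360 over 13 alternatives. Below 24 h of thapsigargin, each group in the order of Lcn2 levels overlapped the next.

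Gpnmb reached 2227, 1962 and 3164 read pairs with thapsigargin at 24 h, against 45, 62 and 50 in DMSO. Its mean was 64.6 ± 13.3 CPM with thapsigargin, against 1.35 ± 0.256 CPM in DMSO, a ratio of 47.97 and a log2 fold change of 5.58 ± 0.65. Per experiment the log2 difference was 5.53, 5.15 and 5.86, a narrower spread (SD 0.36) than that of Lcn2 (SD 1.07). Gpnmb had a median of 1.45 CPM over the 15 DMSO and baseline libraries.

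SW016789 gave Gpnmb 126, 42 and 71 read pairs at 24 h, values that overlapped DMSO. The level was 1.93 ± 0.683 CPM with SW016789 and 1.35 ± 0.256 CPM in DMSO (log2 fold change 0.53 ± 0.56, adjusted p = 0.893). At 6 h of thapsigargin Gpnmb was at 2.62 ± 0.717 CPM, against 1.54 ± 0.396 CPM in DMSO (log2 fold change 0.76 ± 0.57, adjusted p = 0.314). The 12 groups other than 24 h thapsigargin had means between 1.13 and 3.37 CPM, and each overlapped its neighbour in the order.

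Acox2 had 796, 522 and 582 read pairs with thapsigargin at 24 h, against 7, 7 and 1 in DMSO. Its level was 16.7 ± 2.46 CPM with thapsigargin, against 0.127 ± 0.0879 CPM in DMSO, a ratio of 131 and a log2 fold change of 6.98 ± 1.76 (rank 6 of 21752). With SW016789 the 24 h counts were 23, 1 and 12, which overlapped DMSO (log2 fold change 1.10 ± 1.46, adjusted p = 0.934). Thapsigargin for 24 h was 60.9-fold above SW016789 for 24 h, the widest gap between the 2 treatments among the 5 genes.

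Acox2 also varied widely between libraries of 1 group before 24 h. Its 1 h SW016789 libraries held 84, 34 and 1 read pairs (8.59, 1.49 and 0.0277 CPM), in libraries with 36.6%, 17.2% and 6.27% intergenic reads. Against DMSO at 1 h the log2 fold change was 4.94 ± 1.65 with SW016789 (adjusted p = 0.282) and 4.08 ± 1.604 with thapsigargin (adjusted p = 0.415), where DMSO held 9, 0 and 0 read pairs. The share of intergenic reads moved with these values. In a model with experiment and intergenic percent the Acox2 values at 1 h were 2.30 with SW016789 (adjusted p = 0.798) and 2.00 with thapsigargin (0.789).

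Hhipl1 stood at 2216, 1616 and 1740 read pairs with thapsigargin at 24 h, against 16, 30 and 30 in DMSO. Normalised, it was 49.0 ± 5.11 CPM with thapsigargin, against 0.654 ± 0.224 CPM in DMSO, a ratio of 74.9 and a log2 fold change of 6.22 ± 0.90 (rank 21 of 21752). Of the 5 genes it had the smallest adjusted p with SW016789 at 6 and 24 h. At 24 h the SW016789 libraries stood at 4.16, 3.74 and 4.88 CPM, and their mean was 4.26 ± 0.581 CPM, against 0.654 ± 0.224 CPM in DMSO, a 6.51-fold ratio.

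The Hhipl1 difference at 24 h of SW016789 lay at the edge of the test, with a log2 fold change of 2.698 ± 0.79 and an adjusted p of 0.0526. It was positive in 3 of 3 experiments (3.195, 2.16 and 2.54), against DMSO libraries that also entered the choice of the gene. With the experiment number as a block it passed (2.67, adjusted p = 0.0325), and over the 12 alternatives that gave one the adjusted p ranged from 0.000362 to 0.294. At 6 h of SW016789 Hhipl1 was at 7.99, 4.90 and 3.01 CPM, against 0.238, 1.23 and 1.45 CPM in DMSO. Its level there was 5.30 ± 2.51 CPM with SW016789 and 0.972 ± 0.645 CPM in DMSO, again without overlap (log2 fold change 2.42 ± 0.77, adjusted p = 0.0504, 0.00891 to 0.302 over 13 alternatives), and without SW016789 6 h replicate 3 it passed (0.0426). With thapsigargin for 6 h it stood at 4.25 ± 1.86 CPM (log2 fold change 2.10 ± 0.77, adjusted p = 0.0558), and with the block it passed there too (2.01, adjusted p = 0.0423), with 0.0349 to 0.281 over 13 alternatives. Thapsigargin for 24 h was 11.5-fold above SW016789 for 24 h.

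Casp4 had the smallest log2 fold change of the 5, with 259, 272 and 299 read pairs at 24 h of thapsigargin, against 16, 14 and 21 in DMSO. Its level was 7.38 ± 0.997 CPM with thapsigargin, against 0.437 ± 0.0977 CPM in DMSO, a ratio of 16.9 and a log2 fold change of 4.07 ± 1.26. By that measure Casp4 was at rank 447 of 21752 genes, where the other 4 were within the first 57. The log2 difference was similar in the 3 experiments, at 3.79, 4.28 and 3.63.

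Casp4 was the only one of the 5 whose next highest group was SW016789 for 6 h. That group held 81, 67 and 29 read pairs (5.22, 1.53 and 0.840 CPM), against 0, 23 and 10 in DMSO at 6 h, and the library with 81 had 26.5% intergenic reads. The log2 fold change was 3.15 ± 1.22 with an adjusted p of 0.127 by edgeR, and DESeq2 called it (3.19, adjusted p = 0.00846), with 0.00846 to 0.569 over 13 alternatives. At 24 h of SW016789 Casp4 had 29, 38 and 42 read pairs, all above DMSO, with 0.961 ± 0.311 CPM against 0.437 ± 0.0977 CPM (log2 fold change 1.13 ± 1.14, adjusted p = 0.887).

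Between genes, levels were compared per kilobase of exon. At 24 h of thapsigargin Lcn2 was at 62.5 ± 6.43 CPM per kb, Hhipl1 at 18.8 ± 1.96, Gpnmb at 17.005 ± 3.51, Acox2 at 6.34 ± 0.937 and Casp4 at 5.11 ± 0.691 (SD, n = 3 each). Hhipl1 overlapped Gpnmb and Acox2 overlapped Casp4 in range, and the other steps of this order did not overlap. The order by CPM is different, since the Lcn2 exons span 853 bases and those of Gpnmb 3798.

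In the vehicle and at baseline the genes stayed low. Over the 15 DMSO and baseline libraries Lcn2 ranged up to 0.803 CPM (median 0.168), Acox2 up to 1.75 (0.173), Casp4 up to 1.01 (0.376), Gpnmb up to 2.55 (1.45) and Hhipl1 up to 2.67 (1.05). The highest values of Acox2, Gpnmb and Hhipl1 were all in DMSO 2 h replicate 1, the DMSO library with the most intergenic reads (17.04%). In DMSO at 24 h Lcn2 was at 0.278 ± 0.209 CPM, and at baseline at 0.428 ± 0.326 CPM. For Gpnmb these levels were 1.35 ± 0.256 and 1.47 ± 0.207 CPM.

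The remaining comparisons were tested across 21752 genes, all 5 of the genes included, and each passed the filter on low counts also without the 24 h thapsigargin libraries. Thapsigargin and SW016789 were set against the same DMSO libraries, so their differences are not independent. The DMSO libraries of 24 h also entered the choice of the genes, which favours low values there. Against DMSO at 1 h of thapsigargin edgeR called 0 of the 5, where 0.0414% of all genes were called higher. There 1 of the 5 was below 0.05 before adjustment, as were 12.0% of all genes, and DESeq2 called 0. At 2 h it called 0 (0.952% of all genes), with 2 of 5 and 17.97% of all genes at an unadjusted p under 0.05 and 0 of the 5 by DESeq2. At 6 h it called 0 (8.06% of all genes), with 3 of 5 and 38.3% of all genes at an unadjusted p under 0.05 and 1 of the 5, Hhipl1, by DESeq2.

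**Figure D2:**
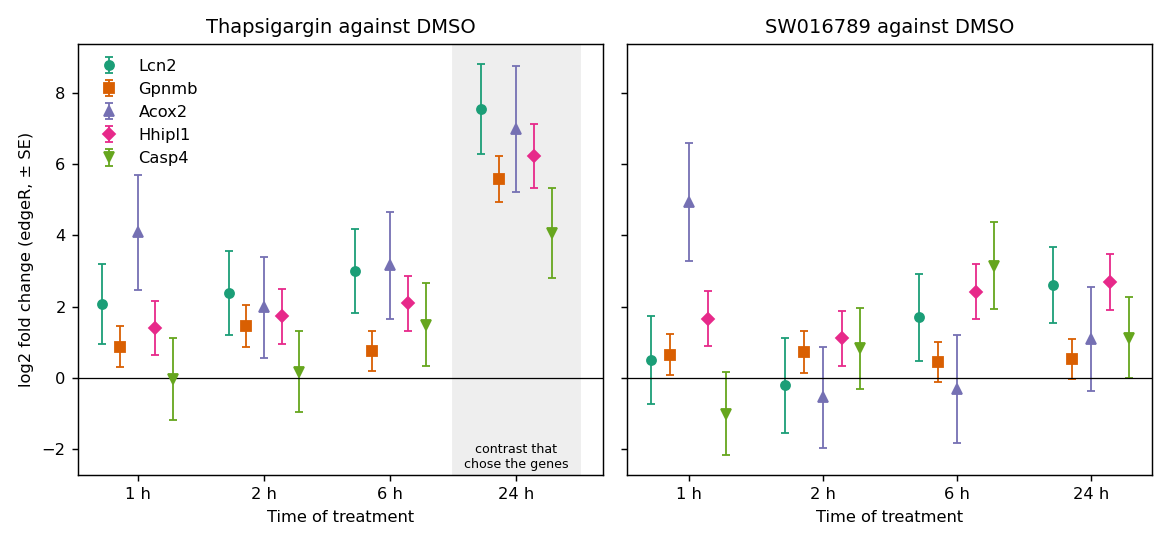
Fitted log2 fold changes (edgeR, ± SE, n = 3 per group) of the 5 genes against DMSO at 1, 2, 6 and 24 h, with thapsigargin on the left and SW016789 on the right. At 24 h of thapsigargin, shaded because it chose the genes, the values run from 4.07 to 7.56, and with SW016789 at 24 h they run from 0.53 to 2.698.

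For SW016789 edgeR called 0 of the 5 at each time. All genes called higher were 0.336% at 1 h, 1.9% at 2 h, 4.19% at 6 h and 1.95% at 24 h. The numbers of the 5 at an unadjusted p under 0.05 were 2, 0, 2 and 2 at 1, 2, 6 and 24 h. Of all genes, 15.3%, 11.8%, 21.98% and 10.4% were below 0.05 at these times. DESeq2 called 0, 0, 2 (Hhipl1 and Casp4) and 0. At 24 h DESeq2 gave no adjusted p for Lcn2 and Hhipl1, so its 0 is no result for them. Casp4 and Acox2 had 12 and 11 alternatives with an adjusted p at 24 h, so that 0 may not cover them either. The log2 fold change of all 5 was positive at 24 h with SW016789 (median 1.13), where 57.1% of all genes were positive, and at 6 h of thapsigargin (median 2.10), where 67.3% were. The median of all genes was itself shifted by 0.30 at 6 h of thapsigargin and by 0.06 at 24 h of SW016789. As the choice of the genes used the DMSO libraries of 24 h, the signs at that time are a description.

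At 2 h the results turned on single DMSO libraries. Without DMSO 2 h replicate 2, the library in which all 5 genes were at 0, the log2 fold changes with thapsigargin were 1.81 for Lcn2, 0.87 for Gpnmb, 1.39 for Acox2, 1.14 for Hhipl1 and -0.41 for Casp4, and 0 were called. With it they were 2.39, 1.46, 1.98, 1.73 and 0.18. Without DMSO 2 h replicate 1, Lcn2, Gpnmb, Acox2 and Hhipl1 were called at 2 h of thapsigargin (adjusted p = 0.0272, 0.00621, 0.0179 and 0.0299), and Gpnmb at 2 h of SW016789 (0.0479). In those fits 2745 and 1638 of all genes were called, against 301 and 562 with all libraries. Lcn2 and Acox2 then had no read in the 2 DMSO libraries left.

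The levels of the genes before 24 h also moved with the share of intergenic reads. Over the 30 libraries of 0 to 6 h, the median of Lcn2 was 0.799 CPM in the 16 libraries with more than 10% intergenic reads and 0.0845 CPM in the 14 others. The medians were 1.09 and 0.0594 CPM for Acox2, 2.98 and 1.14 CPM for Hhipl1, 2.53 and 1.43 CPM for Gpnmb, and 0.659 and 0.398 CPM for Casp4. Of the libraries above 10%, 8 were among 9 with thapsigargin, 5 among 9 with SW016789, 2 among 9 with DMSO and 1 among 3 at baseline. In a model that also held experiment and intergenic percent, the 6 h thapsigargin log2 fold changes were 1.16 for Lcn2, 0.02 for Gpnmb, 0.29 for Acox2, 0.89 for Hhipl1 and 1.20 for Casp4 (adjusted p = 0.281 to 0.988). The intergenic percent moves with the treatment, so the 2 cannot be fully told apart there. In the same model SW016789 at 24 h had 2.57 for Lcn2 (adjusted p = 0.00444) and 2.65 for Hhipl1 (0.000412). With the experiment block alone the adjusted p was 0.137 for Lcn2 and 0.0325 for Hhipl1. The libraries of 24 h spanned only 6.23% to 9.09% intergenic reads, so the model says little about intergenic reads in that contrast.

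**Figure D3:**
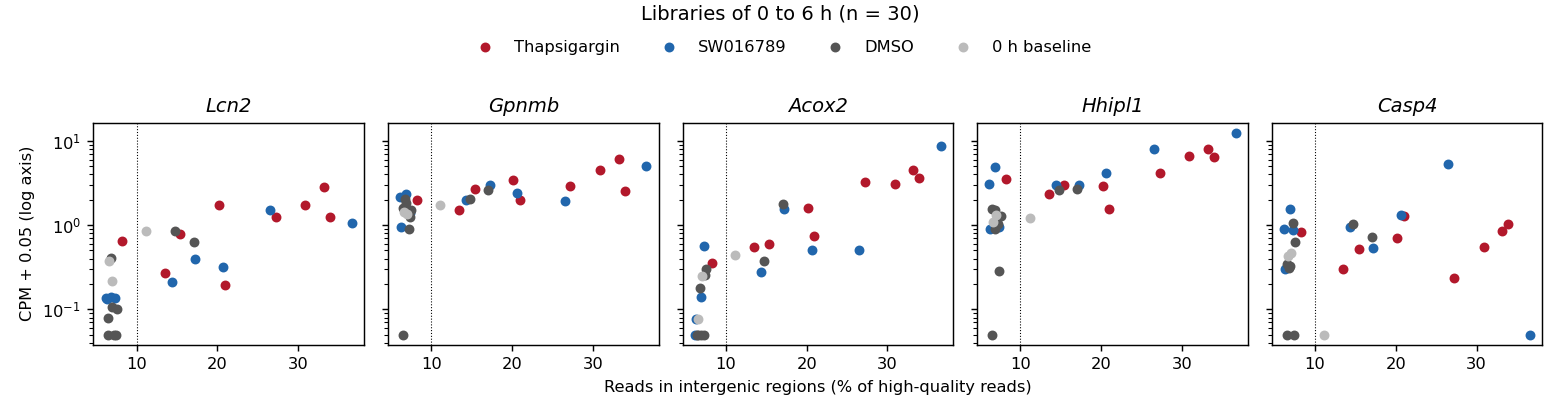
Normalised read counts (CPM plus 0.05, log axis) of the 5 genes against each library's percent of intergenic reads, in the 30 libraries of 0 to 6 h, coloured by treatment, with a dotted line at 10%. Acox2 has a median of 1.09 CPM right of the line and 0.0594 CPM left of it, whereas Casp4 has 0.659 and 0.398 CPM.

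Across the 39 libraries the log2 CPM of the 5 genes correlated pairwise with r from 0.37 (Acox2 and Casp4) to 0.90 (Gpnmb and Hhipl1), a description over libraries that share the 3 high ones of 24 h thapsigargin. Over the 36 other libraries r ran from -0.01 (Acox2 and Casp4) to 0.83 (Gpnmb and Hhipl1). These libraries differ in intergenic reads, which moved with the levels. The 3 genes most like each member were Prdm15 (0.88), Cdsn (0.87) and Cd74 (0.87) for Lcn2, and Ppp1r16b (0.90), Hhipl1 (0.90) and Snx33 (0.89) for Gpnmb. They were Col4a3 (0.89), Saa3 (0.88) and P2rx7 (0.88) for Acox2, Gpnmb (0.90), Ppp1r16b (0.90) and Col14a1 (0.88) for Hhipl1, and Rnf185 (0.80), Gnpnat1 (0.79) and Tmem5 (0.79) for Casp4. Cdsn, a keratinocyte adhesion protein, averaged 20.97 CPM at 24 h of thapsigargin, against 0.266 CPM in DMSO. Cd74, the invariant chain of antigen presentation, averaged 15.6 CPM, against 0.248 CPM in DMSO. By contrast, Rnf185, an ER-resident ubiquitin ligase, averaged 69.5 CPM with thapsigargin and 41.2 CPM in DMSO. Over the 13 group means in place of libraries, 1 of the 15 places (Col4a3 for Acox2) was kept.

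The pathways around the 5 genes were read from lists chosen for their known roles. Earlier results of these data were known when the lists were chosen, so their counts are a description and not an independent test. Of all genes tested, 10.1% were called higher and 10.7% lower at 24 h of thapsigargin (median log2 fold change 0.07). At 24 h of SW016789 1.95% were called higher and 1.06% lower (median 0.06). Among 28 NF-κB target genes, 10 rose and 0 fell with thapsigargin (median 1.16), and 0 were called with SW016789 by edgeR (median 0.48), where 3 of 28, beside 10.4% of all genes, were below 0.05 before adjustment and DESeq2 called 1, lower. With thapsigargin DESeq2 called 8 of the 28 higher and 2 lower. Saa3, an acute-phase protein of macrophages and fat, rose to 3.96 ± 0.560 CPM with thapsigargin, against 0.0436 ± 0.0755 CPM in DMSO (log2 fold change 6.39 ± 1.91, adjusted p = 0.0129). Cxcl10, a chemokine, rose to 5.63 ± 2.08 CPM, against 0.897 ± 0.399 CPM in DMSO (2.64 ± 0.67, adjusted p = 0.00279). Cxcl1 had 11, 13 and 10 read pairs with thapsigargin and none in DMSO, at least 11.7-fold higher when DMSO is set to 3 counts summed over its libraries. Nfkbiz, an atypical IκB protein needed for Lcn2 transcription in macrophages, rose by 1.19 ± 0.26 (adjusted p = 0.000454).

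On the C/EBP and CHOP list, 10 of 13 genes rose with thapsigargin (median 2.27) and 4 with SW016789 (median 0.47), and 0 fell with either. Besides Cebp genes and Ddit3 (CHOP), the list holds Atf3, Atf4, Atf5, Nupr1, Trib3 and Ppp1r15a. Of the genes with a Cebp symbol, Cebpb (2.61), Cebpg (1.65) and Cebpz (0.65) were called higher with thapsigargin, and Cebpa, Cebpd and Cebpe were not called. The symbol alone, as for Cebpz, does not place a gene in the C/EBP family. Trib3, an inhibitor of ATF4 and CHOP, stood at 298 ± 11.9 CPM with thapsigargin and 34.9 ± 6.19 CPM with SW016789, against 15.9 ± 2.33 CPM in DMSO (log2 fold changes 4.22 and 1.13). Nupr1, a stress-induced chromatin protein, stood at 108.5 ± 6.18 CPM and 49.1 ± 12.4 CPM, against 12.4 ± 1.53 CPM in DMSO (3.13 and 1.98), and all 4 of these differences passed the test. Atf3 (3.91) and Ppp1r15a (3.55), the feedback phosphatase subunit for eIF2α, rose with thapsigargin and had values of -0.23 and 0.23 with SW016789.

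**Figure D4:**
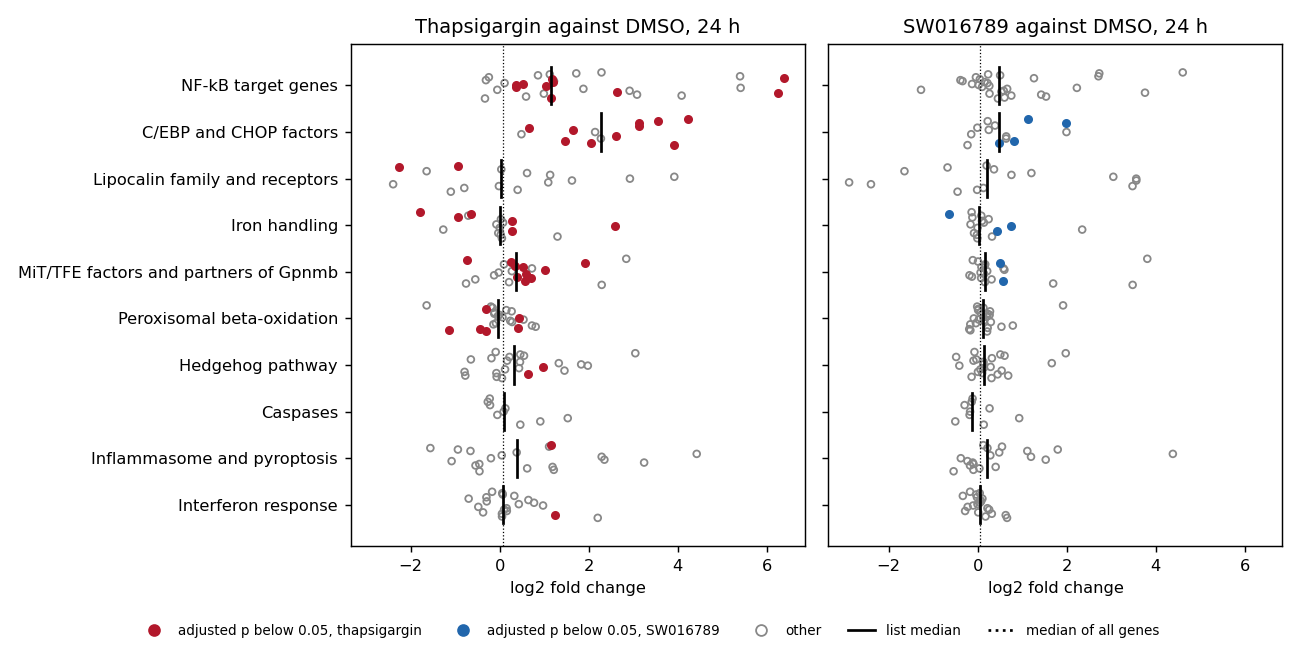
Log2 fold changes at 24 h of the genes on 10 lists, with thapsigargin against DMSO on the left and SW016789 against DMSO on the right (filled points, adjusted p below 0.05; bar, list median; dotted line, median of all genes; vertical spread within a row only separates the points). The C/EBP and CHOP list has the highest median with thapsigargin (2.27), and fitted values of genes with no read in a group depend on the prior count.

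Of 15 other lipocalins and Lcn2 receptors 0 rose and 2 fell with thapsigargin (median 0.03). Rbp4, the retinol carrier, fell to 1.29 ± 0.381 CPM, against 6.26 ± 1.56 CPM in DMSO, and Slc22a17, a receptor for Lcn2, fell to 18.4 ± 0.851 CPM, against 35.1 ± 2.84 CPM (log2 fold changes -2.27 and -0.93). Of 16 iron genes 3 rose and 3 fell (median 0.01). Hmox1, heme oxygenase, rose to 169 ± 18.5 CPM with thapsigargin, against 28.05 ± 0.898 CPM in DMSO, and Slc40a1, the iron exporter, fell by 0.94. Trf, transferrin, fell by 1.79, and Tfrc, its receptor, fell by 0.64 with thapsigargin and by 0.64 with SW016789.

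Of 9 caspases other than Casp4, edgeR called 0 with either treatment (medians 0.09 and -0.13), 1 and 0 were below 0.05 before adjustment, and DESeq2 called 0. Casp1, the inflammasome caspase, was at 1.38 ± 0.661 CPM with thapsigargin, against 1.005 ± 0.635 CPM in DMSO, and Gsdmd, the pore-forming substrate of Casp4, at 5.02 ± 1.04 CPM, against 6.90 ± 1.42 CPM. Both were chosen after their values were seen. By edgeR 1 of 19 genes on the inflammasome list rose, Tlr4, the lipopolysaccharide receptor (1.15 ± 0.21). Of 20 interferon-response genes 1 rose, Ifih1, a sensor of double-stranded RNA (1.24 ± 0.34), with 0 falling by edgeR in both lists (medians 0.38 and 0.08). DESeq2 called 1 higher and 1 lower on the inflammasome list, and 2 higher and 0 lower on the interferon list.

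Of 20 MiT/TFE factors and partners of Gpnmb 9 rose and 1 fell with thapsigargin (median 0.37). Sqstm1, an autophagy receptor, rose to 1567 ± 95.9 CPM, against 414 ± 36.8 CPM in DMSO, Mitf rose by 1.02 ± 0.30, Flcn, a brake on the factors, by 0.70 ± 0.20, and Tfeb fell by 0.74. With SW016789 2 of 20 rose, 1 of them Sqstm1 (0.50 ± 0.08). Of 23 peroxisomal genes other than Acox2, 2 rose and 4 fell with thapsigargin (median -0.04), with Crot (0.43) and Acaa1a (0.42) up and the transporters Abcd2 (-1.14) and Abcd3 (-0.44) down. Of 22 Hedgehog genes 2 rose, Hhat (0.97), which attaches palmitate to the ligands, and Disp1 (0.64), which releases them, and 0 fell by edgeR (median 0.33). DESeq2 called 2 Hedgehog genes higher and 1 lower, and 2 peroxisomal genes higher and 5 lower. With SW016789 edgeR and DESeq2 each called 0 genes of the lipocalin, inflammasome, interferon, peroxisome and Hedgehog lists. There 1, 1, 0, 2 and 1 genes were below 0.05 before adjustment. Of the iron genes edgeR called 2 higher and 1 lower with SW016789, and DESeq2 2 higher and 2 lower.

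With genes that had no read in a group set at a floor of 3 counts and genes at or under that floor in both groups left out, the list medians with thapsigargin were 1.16 for NF-κB targets, 2.27 for C/EBP and CHOP factors, 0.22 for lipocalins, 0.02 for iron, 0.21 for the inflammasome, 0.37 for MiT/TFE, -0.03 for peroxisomes and 0.33 for Hedgehog. With SW016789 the NF-κB and lipocalin medians were 0.46 and 0.38. The median of the macrophage and neutrophil markers with thapsigargin changed sign, at 0.25 in this way and -0.22 as fitted. For stromal and endothelial markers, 2 of 13 above 1 CPM in DMSO at 24 h, it was 1.05 and 0.76. For acinar and ductal markers it was 0.66 and 0.55. A raised median is thus not particular to the NF-κB list.

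Of 10 β cell markers, 10 were above 1 CPM in every group at 24 h. Among them 9 fell with thapsigargin and 4 with SW016789. Their summed level was 17217 to 18266 CPM with thapsigargin and 25476 to 29240 CPM with SW016789, against 30403 to 38569 CPM in DMSO. Ins1 and Ins2 fell by 3.03 and 2.15 on the log2 scale with thapsigargin and by 1.07 and 0.65 with SW016789. Gpnmb, Lcn2 and Casp4 are also genes of myeloid cells, so markers of other cells were read beside them. Of 17 macrophage and neutrophil markers 1, Cd68, was above 1 CPM at 24 h of thapsigargin and in DMSO. S100a8 and Camp were at 0 with thapsigargin, but had only 1 and 2 read pairs in DMSO, summed over its libraries. Csf1r had 71 read pairs with thapsigargin and 6 in DMSO, summed over the libraries (0.586 ± 0.702 and 0.0522 ± 0.0691 CPM). Ngp had 1 and 27 (0.00839 ± 0.0145 and 0.235 ± 0.385 CPM). For both genes the libraries of the 2 groups overlapped. Of the 17 markers edgeR and DESeq2 called 0, with 0 below 0.05 before adjustment. Their part in the levels of the 5 genes was not tested. Their summed level was 9.16 to 10.9 CPM with thapsigargin, against 5.25 to 8.04 CPM in DMSO, of which Cd68 gave 7.33 and 4.34 CPM on average. Acinar and ductal markers summed to 107.1 to 122.02 CPM with thapsigargin, against 110 to 130 CPM in DMSO. Nearly all of this sum was Krt7, a keratin, which gave 104.7 and 106.3 CPM on average. Krt7 was the 1 marker of that list called at 24 h of SW016789 (log2 fold change 0.48, adjusted p = 0.00392 by edgeR). Stromal and endothelial markers summed to 7.80 to 11.2 CPM with thapsigargin, against 7.42 to 9.11 CPM in DMSO. Col1a1 gave 1.90 and 4.16 CPM of these sums on average. The median log2 fold change of this list was 0.76, and edgeR called 0 of its 13 markers. Markers of other islet cells summed to 83.7 to 89.5 CPM with thapsigargin, against 343.4 to 358.7 CPM in DMSO. Of these 8 markers edgeR called 1, Gcg, the glucagon gene, which fell by 2.28 (adjusted p = 2.35e-18 by edgeR). DESeq2 called 2 of the 8 lower.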

How the data were processed

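Total RNA of MIN6 cells was sequenced as 39 libraries. Per the methods, paired reads were mapped with STAR and uniquely mapped pairs counted per gene with featureCounts, strand taken into account. The submitters' notes name STAR 2.5.2b, Subread 1.5.1 and mm10, the methods later versions. The labels give rRNA removal and the methods an mRNA kit, which was not resolved. The authors deposited raw counts per gene, which were used here. The authors' 78 normalized columns were not used, and intergenic percents came from their mapping table.

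The test was the quasi-likelihood test of edgeR 4.0.16, run in R 4.3.3 (filterByExpr by group, TMM, 13 groups, 39 libraries, no block), two-sided, with Benjamini-Hochberg adjustment over 21752 genes and calls at an adjusted p below 0.05. CPM are TMM-scaled, and log2 CPM used a prior count of 2. The script was tested on simulated data. Alternatives were DESeq2 1.42.0, DESeq2 size factors, no filter, the replicate block, the replicate block with each library's intergenic percent, the compared libraries alone, leaving out each library, and, chosen after seeing the data, leaving out 6 libraries above 25% intergenic reads. Experiment numbers pair the samples, since each experiment gave 13 of them (median r of deviations 0.058 for the same number, 105 of 234 pairs above 0.1, and -0.027 otherwise). Libraries of a group differed beyond sampling noise (lowest chi-square over its degrees of freedom 5.14, 39 pairs). P-values of the main fit rest on the spread between libraries of a group, each from another experiment with 1 cell line. Without the block, that spread also holds shifts shared by an experiment, and differences in intergenic reads. The 5 genes and the 15 lists were chosen with earlier results of these data known. Named genes are the 5, the 3 genes with the highest r to each, and up to 4 called genes per list with the largest change. Further genes of the lists were named after their values were seen.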

Additional observations from a re-analysis of the deposited data

How the results depend on the processing

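At 24 h of thapsigargin the median log2 fold change of the 5 genes was 6.22, and 5.93 to 6.34 without any 1 library. The number of the 5 called was 0 in each other comparison. It was 2 with the replicate block at 6 h of thapsigargin, and 1 there with DESeq2, with the compared libraries alone and without libraries above 25% intergenic reads. At 6 h of SW016789 it was 2 with DESeq2 and 1 with no filter, with the block and intergenic percent, with the compared libraries alone and without libraries above 25%. At 24 h of SW016789 it was 1 with no filter and with the block, and 2 with the block and intergenic percent, with the compared libraries alone and without libraries above 25%. Without 1 library it was 0 to 4 at 2 h and 0 to 1 at 6 h of thapsigargin, and 0 to 1 at 2 h and 6 h of SW016789 (1 without SW016789 6 h replicate 3, DMSO 6 h replicate 3 or DMSO 2 h replicate 1), and 0 elsewhere. Of 450 values of single genes outside that contrast, 26 gained a call, and 24, all uncalled, changed sign. As 0 were called to begin with, none could lose a call. Under the replicate block the changed log2 fold changes were -0.044 for Casp4 at 2 h of thapsigargin, and 0.0962 for Lcn2 and 0.475 for Acox2 at 2 h of SW016789. With the block and intergenic percent they were -0.0121 for Acox2 and -0.4521 for Casp4 at 2 h of thapsigargin, -0.9871 for Lcn2 and -0.1416 for Gpnmb at 1 h of SW016789, and 0.1565 for Acox2 at 2 h of SW016789. Without libraries above 25% Lcn2 was at -0.3519 at 2 h of thapsigargin and at -0.4801 and -0.586 at 1 and 6 h of SW016789. Without 1 library, Casp4 ran from -0.4976 to 0.7189 at 1 h and -0.6935 to 0.8854 at 2 h of thapsigargin. With SW016789 Lcn2 ran from -0.4784 to 2.9686 at 1 h, -0.7726 to 5.3813 at 2 h and -0.6327 to 3.8913 at 6 h, and Acox2 from -1.1169 to 6.636 at 2 h and -1.9366 to 0.2591 at 6 h. The values 5.3813 and 6.636 are against DMSO libraries without a read and depend on the prior count. The block changed no other call of the 5 genes.

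The number of all genes called was 10, 301, 3653, 81, 562, 1531 and 655 at 1, 2 and 6 h of thapsigargin and 1, 2, 6 and 24 h of SW016789. DESeq2 gave 40, 1022, 5880, 371, 1153, 2414 and 1256. The block gave 21, 601 and 5952 with thapsigargin, and with the intergenic percent 30 and 638 at 1 and 2 h of thapsigargin and 126, 1315, 2419 and 1357 with SW016789. The compared libraries alone gave 5 and 33 at 1 and 2 h of thapsigargin and 36 and 184 at 1 and 2 h of SW016789. Without libraries above 25%, which left 1 library of 2 h thapsigargin that is assumed to vary like the other groups, 63 were called there. Leaving out 1 library gave 4 to 15, 48 to 2745, 1673 to 3806, 41 to 84, 266 to 1638, 572 to 1155 and 297 to 516. The highest 2 h counts, 2745 and 1638, came without DMSO 2 h replicate 1, and 1673 and 572 at 6 h without DMSO 6 h replicate 1. The cause of these shifts was not tested. At 24 h of SW016789 Acox2 had 1 to 23 read pairs, which limits the precision of its fold change.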
